A study of Mus musculus with 1073 samples.

Results

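The vascular endothelial growth factor (VEGF) system was followed through 9 genes, 5 receptors (*Kdr*, *Flt1*, *Flt4*, *Nrp1* and *Nrp2*, where *Kdr* is also called *Flk1*) and 4 ligands (*Vegfa*, *Vegfb*, *Vegfc* and *Pgf*), which were taken by name from the 15967 genes of the filtered table. All 9 were present in it. Their levels were described in 926 of 1073 captured single cells from 13 populations sorted from mouse yolk sac. Embryos at E7.25 and E7.75 were Flk1-GFP/+, so that 1 *Kdr* allele carried GFP, and cells were sorted as GFP+ after trypsin (at E7.25 73 and 74 cells kept from 2 lanes, at E7.75 140 cells). Whether the GFP allele still makes *Kdr* transcript is not given in the sources used here, and a *Kdr* level in these cells is partly set by the sort. The Flk1-GFP line was kept on C57BL/6. All later yolk sacs were also C57BL/6 and were dissociated with collagenase/dispase. Haematopoietic progenitor cells (HPC, labelled Erythro-Myeloid Progenitors, EMP) were sorted as TER119-CDH5+CD41+ at E8.25 (73 cells) and E8.5 (89 cells), and as TER119-CDH5-CD45+CD41low at E9.5 (46 cells) and E10.5 (87 cells). Primitive erythroid cells (EryP) carried TER119 without CD41 or CDH5 (66 cells at E8.5 and 3 at E10.5, also without CD45 at E10.5). Megakaryocytes (Mk) were TER119-CDH5-CD41+ at E8.5 (37 cells) and TER119-CDH5-CD45-CD41high at E10.5 (73 cells), and macrophages (Mac) were TER119-CDH5-CD41-CD45+ at E10.5 (25 cells). Endothelial cells (Endo) were TER119-CD41-CDH5+ at E8.5 (79 cells) and additionally CD45- at E10.5 (61 cells).

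VEGFA signals through KDR, the main signalling receptor of endothelium, and also binds FLT1, a weaker kinase with a soluble form that can trap ligand. VEGFB and PGF bind FLT1, and VEGFC binds FLT4 and, once processed, KDR. The neuropilins NRP1 and NRP2 are co-receptors that also bind class 3 semaphorins. In the early embryo *Kdr* marks the mesoderm from which yolk sac blood and vessels arise, and it is known to be needed for both.

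*Kdr* and *Flt1* are shown with the sequence upstream of their annotated starts, because they were found together in endothelium and apart in megakaryocytes (values follow). Both lie on the minus strand of chromosome 5 (GRCm38), *Kdr* at chr5:75932827-75978458 and *Flt1* at chr5:147561604-147726011. The sequences are from RefSeq (GRCm38.p6), 5′ to 3′ on the strand of the gene, at chr5:75978459-75978705 for *Kdr* (247 bases) and chr5:147726012-147726261 for *Flt1* (250 bases). Capitals mark GGAA or its reverse complement TTCC, the core bound by ETS factors.
Kdr: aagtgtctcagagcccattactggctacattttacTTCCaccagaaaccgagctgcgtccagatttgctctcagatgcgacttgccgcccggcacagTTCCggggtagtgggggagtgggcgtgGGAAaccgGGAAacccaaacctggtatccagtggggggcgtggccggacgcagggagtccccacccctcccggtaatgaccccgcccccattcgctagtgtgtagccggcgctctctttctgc
Flt1: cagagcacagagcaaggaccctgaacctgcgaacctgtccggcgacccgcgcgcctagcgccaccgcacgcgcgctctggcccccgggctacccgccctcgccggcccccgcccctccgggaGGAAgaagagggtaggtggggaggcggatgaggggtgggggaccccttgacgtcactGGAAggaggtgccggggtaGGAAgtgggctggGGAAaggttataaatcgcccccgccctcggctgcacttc
GGAA was present 4 times in each, on either strand, against a median of 3 in the 250 bases upstream of 32851 starts, of which 93.4% held it at least 1 time. TATAAA was present 1 time in *Flt1* and 0 times in *Kdr* (12.4% of all starts), TGACGTCA 1 time in *Flt1* and 0 times in *Kdr* (1.55%), and the GATA-type AGATAA in neither (9.99%). These are matches of letters, with no binding measured.

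The other members lie on separate chromosomes apart from *Nrp1* (chr8:128358604-128503363) and *Vegfc* (chr8:54077606-54187096). *Nrp2* lies at chr1:62703285-62818695, *Flt4* at chr11:49609263-49652739, *Pgf* at chr12:85166635-85177790, *Vegfa* at chr17:46016993-46032369 and *Vegfb* at chr19:6982473-6987651. Reads were counted per gene, over all exons, so soluble and full-length forms of *Flt1* or the neuropilins were not told apart. Of the 9 genes only *Nrp1* shared annotated exonic bases with another gene, 80 bases with the microRNA gene *Mir1903*.

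Each value is the deposited CPM of a cell (counts per 1000000, scaled by size factors of the authors), and a gene was called found in a cell at 1 count or more. Total counts per cell ranged from 483830 to 5943204 (median 1887348). The labels tie no cell to an embryo or pool, and 11 of the 13 populations were each read in a single lane, so each population was taken as 1 sample and no test between populations was made. Ratios are log2 of mean CPM + 1, called when they reached 2-fold with a mean of 10 CPM in either population, and folds are plain ratios of mean CPM, which exceed the ratio of mean CPM + 1 where a mean is low. Whether quartile ranges overlapped is given for the members only. No share over all genes stands beside it, so it does not say whether such a gap is unusual. Shares carry exact (Clopper-Pearson) 95% intervals. For a count of 0 the upper limit given is 3 cells of the total. A fold over a count of 0 is set against a floor of 3 counts over the population. Intervals, limits and floors cover counting error only. A single positive cell can exceed this floor, as 1 E10.5 Mac with 49 *Kdr* counts did, so such a fold is no lower bound over cells. E7.25, E8.25 and E8.5 were read on one flow cell and E7.75, E9.5 and E10.5 on the other, so stage and flow cell cannot be told apart across them. Counts of both *Xist* and Y-linked genes (5 or more of each) were present in 293 of the 926 cells. They made up 11.0% of E10.5 Mk to 74.7% of E8.5 Endo among populations of 25 cells or more. Where leaving them out ended a call, added one or moved a ratio by over 1.5 times, that value is given. Shares of cells, also those with several genes found in the same cell, include them. Whether such a column holds counts of more than 1 cell was not tested.

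Sorted labels were checked against markers. All 8 endothelial markers were found in 50% or more of the cells of both endothelial populations, with a median summed level of 2263 CPM at E8.5 and 4594 CPM at E10.5. E8.25 and E8.5 HPCs, sorted as CDH5+, also held 6 of these 8 in 50% or more of cells (median sums 628.6 and 344.2 CPM), and E9.5 and E10.5 HPCs held 2 (65.9 and 84.7 CPM). In the library labelled E8.5 Mk, 5 erythroid genes summed to a median of 25201 CPM and 5 megakaryocyte genes to 183.6 CPM, against 21.1 and 5331 CPM in E10.5 Mk. *Hbb-bh1* alone had a mean of 22619 CPM there, against 56134 CPM in E8.5 EryP and 3191 CPM in E8.5 HPCs. Megakaryocyte genes were nevertheless higher in E8.5 Mk than in the other E8.5 populations, with *Pf4* at 163.3 CPM (0 in EryP, 41.6 in HPCs), *Itga2b* at 164.8 CPM (24.5 and 92.4) and *Gp1bb* in 54.1% of cells (0% and 8.99%). The erythroid sum goes against the label, and E8.5 Mk values are given as those of the cells so labelled. All 6 macrophage markers were found in 50% or more of E10.5 Mac cells, with a median sum of 3454 CPM.

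All 5 receptors were highest in endothelium, and the blood populations held different subsets of them. In megakaryocytes *Kdr* was the one receptor found in most cells, in macrophages it was *Nrp1*, and in E8.5 primitive erythroid cells 3 of the 5 were not found. All 5 were found among HPCs at E8.25 and E8.5, and in the same cell in 43.8% and 40.4% of them. Levels of 4 of the 5 were lower in E10.5 HPCs, which were sorted by another gate. The heat map of mean levels shows this order of populations.

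**Figure D1:**
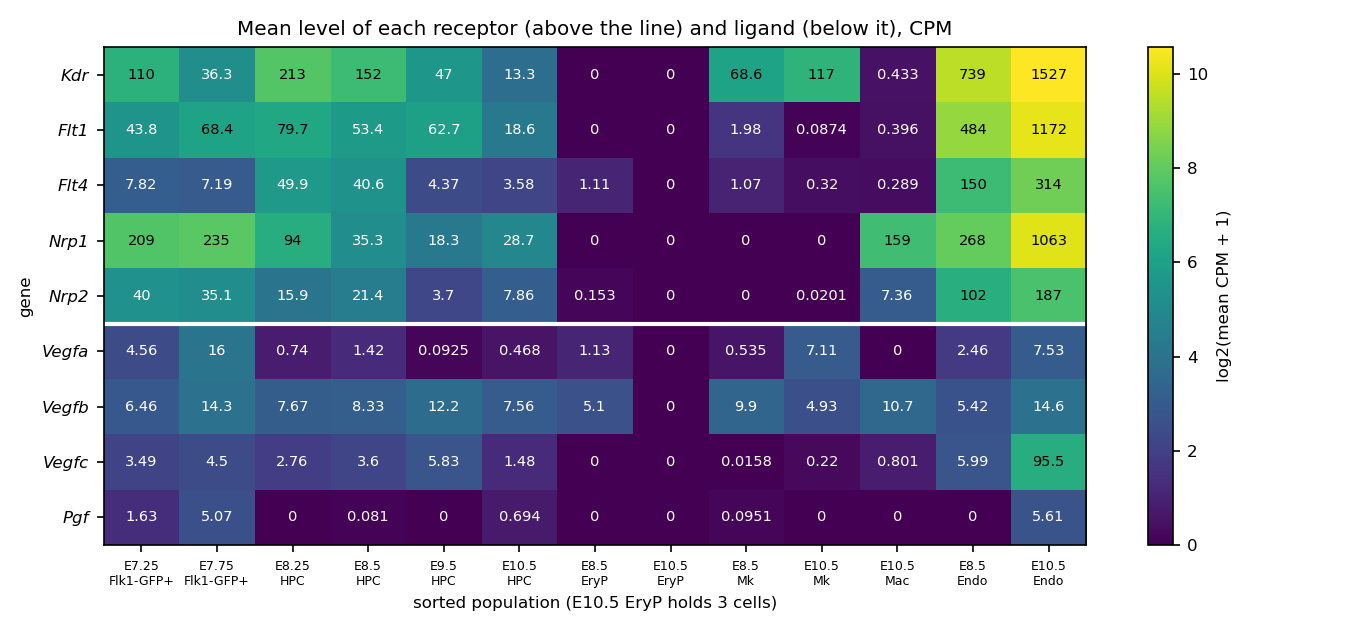
Mean CPM of the 5 receptors (rows above the white line) and 4 ligands (rows below it) in the 13 sorted populations (columns). Colour is log2 of mean CPM + 1 and the printed number is the mean CPM. The receptor rows peak in the endothelial columns at the right, with *Kdr* at 1527 CPM in E10.5 Endo, and in the Mk columns *Kdr* is at 68.6 and 117.2 CPM with every other receptor under 2 CPM.

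*Kdr* was found in all 79 E8.5 and all 61 E10.5 endothelial cells (95% intervals 95.4 to 100% and 94.1 to 100%). Its level in E8.5 endothelium ran from 82.3 to 4374 CPM with a median of 635.9 CPM, and in E10.5 endothelium from 2.14 to 12837 CPM with a median of 1084 CPM. It was the receptor with the highest level per exonic kilobase in both (means of 81.9 and 169 CPM per kb of all exons). *Flt1* followed at E8.5 with 35.9 CPM per kb, and *Nrp1* at E10.5 with 108.6 CPM per kb. Per kilobase of the longest transcript the order turned at E10.5, with *Nrp1* at 291.6 and *Kdr* at 257.7 CPM per kb, and at E8.5 *Nrp1* (73.5) passed *Flt1* (70.2) behind *Kdr* (124.8). *Flt1* had medians of 407.3 and 769.1 CPM in E8.5 and E10.5 endothelium and was found in every cell of both. *Flt4*, the receptor of VEGFC, had medians of 122.1 and 188.4 CPM and was found in 79 of 79 and 58 of 61 cells. *Nrp1* had medians of 214.1 and 610.4 CPM, and *Nrp2* medians of 72.7 and 101.3 CPM. Counts of all 5 receptors were present in 98.7% of E8.5 endothelial cells (93.1 to 100%) and in 91.8% of E10.5 endothelial cells (81.9 to 97.3%). Both shares include cells with *Xist* and Y-linked counts, which were 74.7% and 42.6% of these populations.

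Primitive erythroid cells were at the other end. *Kdr*, *Flt1* and *Nrp1* each had a count in 0 of 66 E8.5 EryP, and a count of 0 allows a share of up to 4.55%. *Flt4* was found in 4 of these 66 cells and *Nrp2* in 3, and 89.4% of the cells (79.4 to 95.6%) held no receptor. In the 3 E10.5 EryP kept, no member was found. All 5 receptors were called higher in E8.5 Endo than in E8.5 EryP, as were 27.5% of the 9540 genes compared. Against a floor of 3 counts over the 66 cells, *Kdr* was 27861-fold, *Flt1* 18252-fold and *Nrp1* 10101-fold higher in endothelium. *Flt4* and *Nrp2*, with means of 1.11 and 0.15 CPM in E8.5 EryP, were 135.1-fold and 668-fold higher in endothelium.

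Megakaryocytes held *Kdr* with little of any other receptor. At E10.5 *Kdr* was found in 68 of 73 Mk (93.2%, 84.7 to 97.7%), with quartiles of 8.72, 56.8 and 172.8 CPM and a highest cell at 737.5 CPM. *Flt1* was found in 3 of these 73 cells with 9 counts in all, *Flt4* in 2 with 17 counts and *Nrp2* in 2 with 4 counts. *Nrp1* had 0 counts, which allows a share of up to 4.11%. In 83.6% of E10.5 Mk (73.0 to 91.2%) *Kdr* was the only receptor found. The endothelial markers *Cdh5* and *Ramp2* were each found in 1.37% of E10.5 Mk and *Aplnr*, *Emcn* and *Sox7* in none, while *Pecam1* and *Tek*, which are also known in blood cells, were found in 78.1% and 50.7%, and *Plvap* in 26.0%. Across these 73 cells the rank correlation of *Kdr* with the sum of the 8 endothelial markers was 0.10, a description over cells that share a lane.

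In the cells labelled E8.5 Mk, *Kdr* was found in 33 of 37 (89.2%, 74.6 to 96.97%), with quartiles of 1.32, 18.2 and 97.4 CPM, and neither neuropilin had a count (up to 8.11% of cells each). *Flt1* was found in 5 and *Flt4* in 4 of the 37 cells, and in 64.9% *Kdr* was the only receptor found (47.5 to 79.8%). The *Kdr* mean was 1.71-fold higher at E10.5 than at E8.5 (117.2 and 68.6 CPM), and the middle 50% of cells overlapped between the stages. *Kdr* was the only member compared between these Mk stages and it was not called (log2 ratio 0.76), while of 8983 genes 16.3% were called higher and 12.7% lower at E10.5. *Flt1* had means of 1.98 CPM at E8.5 and 0.09 CPM at E10.5, both under the level at which genes were compared. By the mean of log2(CPM + 1) over cells the *Kdr* ratio was 1.13 and called. Without the cells holding *Xist* and Y-linked counts *Kdr* was at 0.87, and *Vegfb*, which then reached the level for comparison, was called lower at E10.5 (-1.22) and also lower in E8.5 Endo than in E8.5 Mk (-1.16).

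All 5 receptors were called higher in endothelium than in Mk at both stages, as were 23.5% of 9620 genes at E8.5 and 29.2% of 10234 genes at E10.5. The difference was least for *Kdr*, at 10.8-fold at E8.5 and 13.0-fold at E10.5. *Flt1* was 245-fold higher at E8.5 and *Flt4* 140-fold, and *Flt4* was 982-fold higher at E10.5. *Nrp1* had no count in either Mk population. Against the floor used for genes without a count, *Nrp1* was 10954-fold higher in endothelium at E8.5 and 31487-fold at E10.5. These folds are no lower bounds over cells. Per exonic kilobase, mean *Kdr* was 51.8 times mean *Flt1* in E8.5 Mk, against 2.28 times in E8.5 Endo and 1.95 times in E10.5 Endo.

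**Figure D2:**
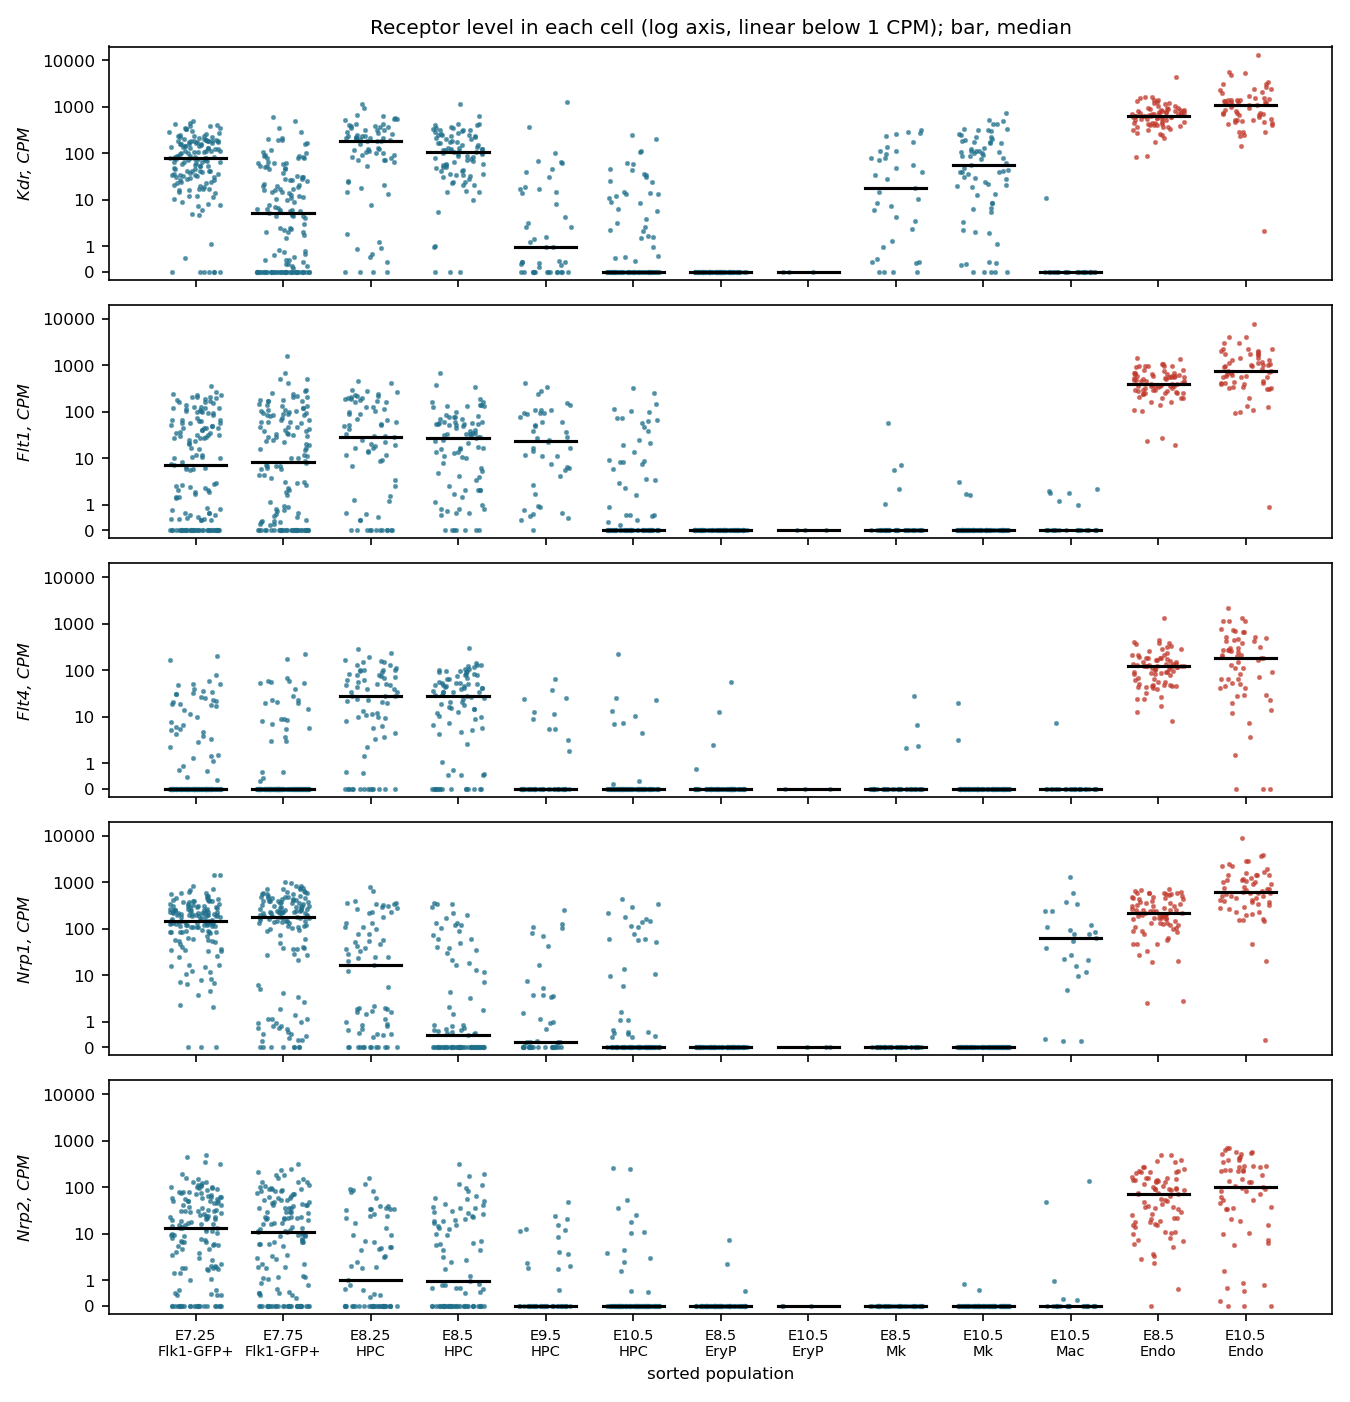
Level of each receptor (CPM, log axis that is linear below 1 CPM) in every cell of the 13 populations. Each point is a cell, endothelial cells are red, and the black bar is the median. *Kdr* is spread from 0 to 737.5 CPM in E10.5 Mk, where *Nrp1* is at 0 in every cell, and *Nrp1* is above 0 in all 25 E10.5 Mac.

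Macrophages held *Nrp1* and little of the other receptors. *Nrp1* was found in all 25 E10.5 Mac (86.3 to 100%), from 0.24 to 1324 CPM with quartiles of 15.7, 62.7 and 120.4 CPM. *Kdr* and *Flt4* were each found in 1 of these cells and *Flt1* in 6, the latter with 25 counts in all. In 18 of the 25 (72%, 50.6 to 87.9%) *Nrp1* was found with none of *Kdr*, *Flt1* and *Flt4*. *Nrp2* was found in 5 cells, at up to 134.5 CPM. All 5 receptors were called higher in E10.5 Endo than in E10.5 Mac, as were 35.1% of 10294 genes, and the difference was least for *Nrp1* at 6.69-fold. The macrophage *Nrp1* mean of 158.9 CPM rested on few cells, since 5 of the 25 held 73.1% of the summed level. *Kdr* was 3527-fold, *Flt1* 2958-fold and *Flt4* 1087-fold higher in endothelium. E10.5 HPCs, sorted with CD45 like the macrophages, held *Nrp1* at a mean of 28.7 CPM, 5.53-fold under the macrophage mean, and in 34.5% of cells.

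In HPCs the receptors were compared over 4 stages. *Kdr* was found in 94.5% of E8.25 cells (86.6 to 98.5%), 96.6% of E8.5 cells (90.5 to 99.3%), 69.6% of E9.5 cells (54.2 to 82.3%) and 41.4% of E10.5 cells (30.9 to 52.4%). Its medians in the same order were 184.1, 105.9, 0.97 and 0 CPM. A few cells kept high levels, with a highest cell of 1270 CPM at E9.5 and 252.2 CPM at E10.5. *Flt4* was found in 80.8% and 83.1% of cells at E8.25 and E8.5, then in 23.9% at E9.5 and 11.5% at E10.5. *Flt1* was found in 83.6%, 92.1% and 97.8% of cells at the first 3 stages, and in 41.4% at E10.5. At 10 counts or more *Flt1* was present in 68.5%, 67.4%, 67.4% and 25.3% of cells in the same order, while *Kdr* was present in 84.9%, 94.4%, 39.1% and 25.3%. *Flt1* alone, without *Kdr*, was found in 3.37% of HPCs at E8.5 and in 30.4% at E9.5.

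Of the neuropilins, *Nrp1* had means of 94.0, 35.3, 18.3 and 28.7 CPM from E8.25 to E10.5, and medians of 16.3, 0.47, 0.20 and 0 CPM. E8.25 and E8.5 HPCs came from the same gate and flow cell, and between them the *Nrp1* mean was 0.38 times and the *Kdr* mean 0.71 times the E8.25 value, with overlapping quartile ranges. *Nrp2* had means of 15.9, 21.4, 3.70 and 7.86 CPM and was found in 58.9%, 60.7%, 32.6% and 17.2% of cells. The median number of receptors found per HPC was 4 at both early stages, then 3 and 1, and among HPCs a cell without any receptor was present at E10.5 (14 of 87) and not at the other 3 stages. Cells with *Kdr* as the only receptor made up 24.1% of E10.5 HPCs (15.6 to 34.5%).

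From E8.5 to E10.5 in HPCs, 4 of the 5 receptors were called lower and none higher, while of 9184 genes 12% were called lower and 9.02% higher. *Kdr* fell by 3.42, *Flt4* by 3.18, *Flt1* by 1.47 and *Nrp2* by 1.34 on the log2 scale, and the *Nrp1* ratio was -0.29. Quartile ranges were apart for *Kdr* and *Flt4* and overlapped for the other 3. Without the cells holding *Xist* and Y-linked counts, the *Flt1* ratio was -0.65 and no longer called, and the *Nrp2* ratio was -2.00. No ligand reached the level for comparison. Macrophage markers moved in the other direction, with a median sum of 0 at E8.5 (0 to 489.4 CPM) and 241.4 CPM at E10.5 (0.34 to 6108 CPM), and 0 and 3 of the 6 found in 50% or more of cells. *Csf1r* was at 15.8 and 99.6 CPM, *Cx3cr1* at 0.56 and 114.3 CPM and *Adgre1* at 0 and 43.4 CPM, the last in 37.9% of E10.5 HPCs, and their part in the receptor levels was not tested. The gate changed from CDH5+ to CDH5- between these stages, so stage, gate and flow cell cannot be told apart here.

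Endothelial markers moved with the receptors among early HPCs. Over the 73 E8.25 HPCs, the rank correlation with the summed endothelial markers was 0.68 for *Flt1*, 0.62 for *Nrp1*, 0.60 for *Kdr*, 0.54 for *Flt4* and 0.44 for *Nrp2*, and over the 89 E8.5 HPCs it was between 0.51 and 0.56 for each. Over the 46 E9.5 HPCs it was between -0.21 and 0.30. These are descriptions over cells of 1 lane each, and the part of the endothelial programme in the receptor levels was not tested. The receptors also varied together in E8.25 HPCs, with rank correlations from 0.38 to 0.65 for the 10 pairs. Other populations had lower ranges, 0.24 to 0.56 in E8.5 HPCs and -0.05 to 0.41 in E7.25 cells. In endothelium the range was -0.09 to 0.29 at E8.5 and 0.11 to 0.35 at E10.5. Cells with *Xist* and Y-linked counts, 35.6% of E8.25 HPCs, were included.

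All 5 receptors were called higher in endothelium than in HPCs at both stages, as were 17.9% of 9433 genes at E8.5 and 30.4% of 10248 genes at E10.5. At E8.5 the folds were small, 3.70 for *Flt4*, 4.78 for *Nrp2*, 4.86 for *Kdr*, 7.59 for *Nrp1* and 9.07 for *Flt1*. Quartile ranges were apart for all of these except *Nrp2*. Without the cells holding *Xist* and Y-linked counts the log2 ratio of *Nrp1* was 3.77 in place of 2.89 and that of *Flt1* 3.90 in place of 3.16. At E10.5 the folds were 23.8 for *Nrp2*, 37.0 for *Nrp1*, 63.1 for *Flt1*, 87.8 for *Flt4* and 114.6 for *Kdr*. Quartile ranges were apart for each, and the share of all genes with ranges apart is not given at either stage.

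**Figure D3:**
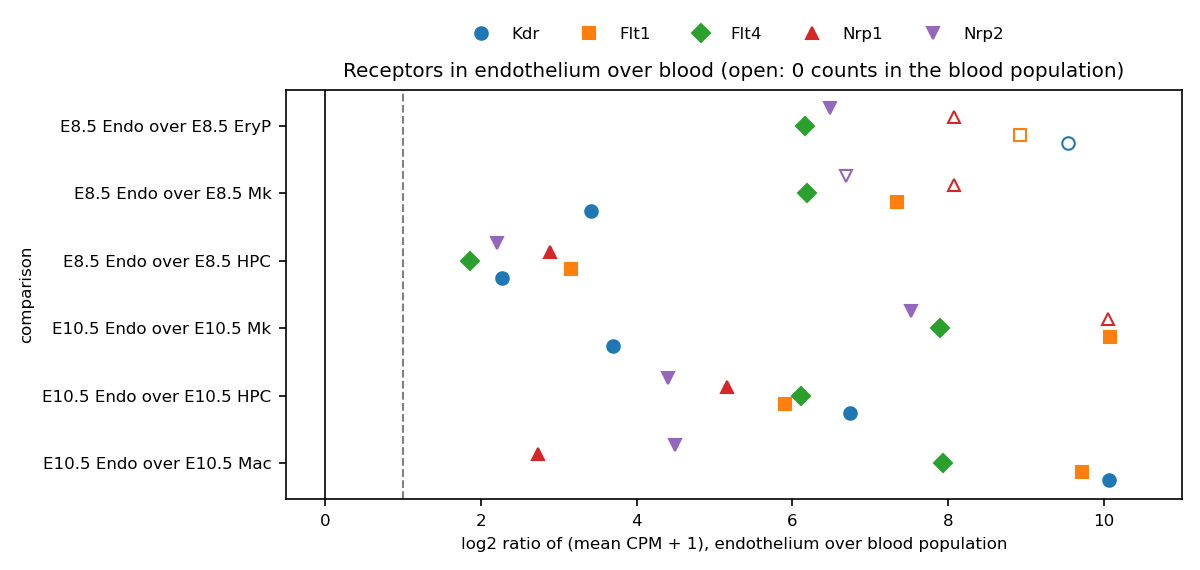
Log2 ratio of mean CPM + 1 of each receptor in endothelium over a blood population of the same stage (rows). Each symbol is a receptor, an open symbol has 0 counts in the blood population, and the dashed line marks 2-fold. All 30 symbols lie past the line, nearest to it in the row of E8.5 Endo over E8.5 HPC, and *Kdr* is the lowest in both Mk rows.

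*Kdr* and *Flt1* were compared cell by cell, since a cell can hold either receptor alone. Both were found in 71.4% of E7.25 cells (63.4 to 78.6%), 57.9% of E7.75 cells (49.2 to 66.1%), 80.8% of E8.25 HPCs, 88.8% of E8.5 HPCs and 67.4% of E9.5 HPCs, and in every endothelial cell. In E10.5 HPCs both were found in 12.6% (6.48 to 21.5%), in E8.5 Mk in 13.5%, in E10.5 Mk in 4.11% and in no EryP or Mac. At 10 counts or more of each gene, both were present in 48.3% of E7.25 cells, 29.3% of E7.75 cells, 65.8% of E8.25 HPCs, 66.3% of E8.5 HPCs and 23.9% of E9.5 HPCs. Thinned to 800000 counts per cell (40 shallower cells left out), the shares at 1 count were 63.9%, 44.4%, 72.2%, 78.7% and 44.4% in the same order.

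**Figure D4:**
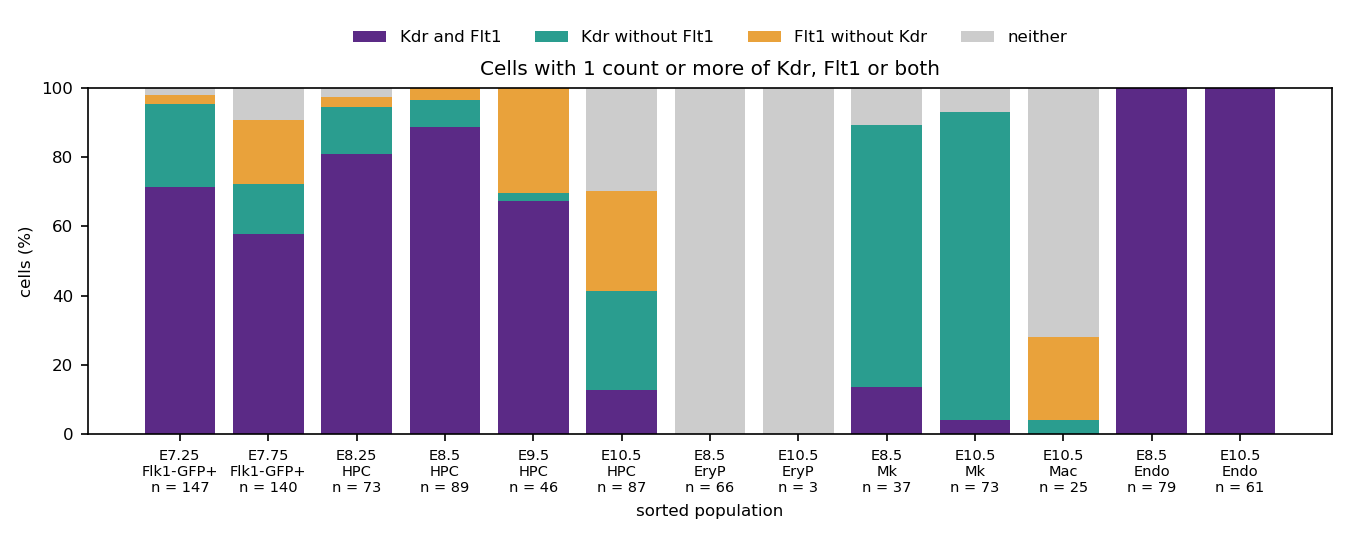
Share of cells (%) in each of the 13 populations with 1 count or more of *Kdr* and *Flt1*, of *Kdr* only, of *Flt1* only or of neither, with the number of cells under each bar. *Kdr* without *Flt1* fills 89.0% of the E10.5 Mk bar, and both endothelial bars are filled by cells with both genes.

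In the Flk1-GFP+ cells, *Kdr* was lower at E7.75 than at E7.25 and *Vegfa* and *Vegfb* were higher. *Kdr* had quartiles of 28.9, 77.4 and 166.3 CPM at E7.25 and of 0, 5.11 and 28.3 CPM at E7.75, and was found in 95.2% (90.4 to 98.1%) and 72.1% (63.9 to 79.4%) of cells. The middle 50% of cells were just apart. On the log2 scale *Kdr* fell by 1.57, and over the 4 pairs of lanes the ratio ran from -1.88 to -1.17. *Nrp1* was the receptor with the highest level in both, with means of 209.2 and 235.2 CPM (21.4 and 24.0 CPM per kb). *Flt1* had means of 43.8 and 68.4 CPM with medians of 7.05 and 8.27 CPM, and *Nrp2* means of 40.0 and 35.1 CPM. *Flt4* was found in 30.6% and 21.4% of cells. Of the 6 members compared, 1 was called lower and 2 higher at E7.75, while of 8888 genes 5.46% were called lower and 4.92% higher. Endothelial markers had median sums of 108.5 CPM at E7.25 and 158.7 CPM at E7.75. Markers of other cells also differed between these stages. The 10 mesoderm and mesenchyme markers had median sums of 365.2 and 471.5 CPM, in which the early mesoderm genes *Mixl1* (270.2 and 37.4 CPM) and *T* (66.6 and 9.40 CPM) were lower at E7.75 and *Acta2* (22.6 and 214.0 CPM) and *Snai2* (12.2 and 68.1 CPM) higher. The embryonic globin *Hbb-bh1* was at 15.0 and 498.3 CPM, in 9.52% and 80% of cells. Their part in the *Kdr*, *Vegfa* and *Vegfb* differences was not tested.

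The ligands were low in every population, with means of 16.0 CPM or less, apart from *Vegfc* in E10.5 endothelium. A fall in a population mean can be fewer cells with a transcript or less transcript per cell, and shares are therefore given beside levels. *Vegfa*, the main ligand of KDR, was highest in E7.75 Flk1-GFP+ cells, with a mean of 16.0 CPM and a highest cell of 246.1 CPM, and was found in 77.1% of them (69.3 to 83.8%). At E7.25 its mean was 4.56 CPM with 50.3% of cells (42.0 to 58.7%), a ratio between the stages of 1.61 on the log2 scale, and from 1.37 to 1.92 over the 4 pairs of lanes. With a pseudocount of 10 CPM in place of 1 the ratio was 0.84 and no longer called. In blood it was found in 37.8% of E8.5 Mk, 27.4% of E10.5 Mk, 27.3% of E8.5 EryP and 6.52 to 22.5% of HPCs. At 10 counts or more the shares were 2.70%, 15.1%, 9.09% and 2.17 to 5.62% in the same order. Median depth was 3536330 counts in E8.5 Mk and 1668712 in E10.5 Mk, and the E8.5 Mk mean of *Vegfa* was 0.53 CPM. None of the 25 E10.5 Mac held a count, which allows a share of up to 12% of cells. In E10.5 Mk the mean of 7.11 CPM came with a median of 0 and a highest cell of 288.1 CPM. Endothelium held *Vegfa* in 38.0% of cells at E8.5 and 59.0% at E10.5, with means of 2.46 and 7.53 CPM.

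*Vegfb* was found in all 12 populations of 25 cells or more, in 24.7% of E10.5 Mk to 87.1% of E7.75 cells. Its means lay between 4.93 CPM in E10.5 Mk and 14.6 CPM in E10.5 Endo. The latter rested on few cells, since *Vegfb* was found in 32.8% of E10.5 endothelial cells and 5 of the 61 cells held 77.5% of the summed level. By CPM of the cell total, by the mean of logs and over all captured cells, *Vegfb* was highest at E7.75. At E7.75 its mean was 14.3 CPM against 6.46 CPM at E7.25, a log2 ratio of 1.03 (0.69 to 1.26 over the 4 pairs of lanes), and 0.92 without the cells holding *Xist* and Y-linked counts. Per exonic kilobase, *Vegfb* was the highest of the 9 members in E9.5 HPCs (7.59 CPM per kb), E10.5 HPCs (4.71) and E8.5 EryP (3.18). Per kilobase of the longest transcript *Nrp1* was the highest in E10.5 HPCs (7.89 against 5.91 for *Vegfb*).

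*Vegfc*, the ligand of FLT4, was the ligand with the highest level, and only in E10.5 endothelium. It was found there in 51 of 61 cells (83.6%, 71.9 to 91.8%), with quartiles of 0.59, 6.17 and 119.1 CPM, a mean of 95.5 CPM and a highest cell of 1052 CPM. At E8.5 it was found in 20 of 79 endothelial cells (25.3%, 16.2 to 36.4%), with a mean of 5.99 CPM and a median of 0. In the other populations its mean was between 0 and 5.83 CPM, the latter in E9.5 HPCs. In 80.3% of E10.5 endothelial cells (68.2 to 89.4%) *Vegfc* and *Flt4* were found in the same cell, against 25.3% at E8.5. *Flt4* was found in 95.1% and 100% of these cells, so the shares follow those of *Vegfc* alone. At 10 counts or more of each gene they were 41.0% and 12.7%. *Vegfc* was also called higher in E10.5 Endo than in E10.5 Mk (434-fold), HPCs (64.6-fold) and Mac (119.2-fold).

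*Pgf* was near 0 in nearly all cells, found in 36 of 926. It was found in 13.6% of E7.75 cells (8.37 to 20.4%) and 6.12% of E7.25 cells, in 2 of 61 E10.5 endothelial cells, 1 of 89 E8.5 HPCs, 3 of 87 E10.5 HPCs and 2 of 37 E8.5 Mk, and in no cell of the other 7 populations. The mean in E10.5 Endo, 5.61 CPM, came from those 2 cells. At E7.75 it was found in 3.77% of the cells of lane 7 and 19.5% of those of lane 8.

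**Figure D5:**
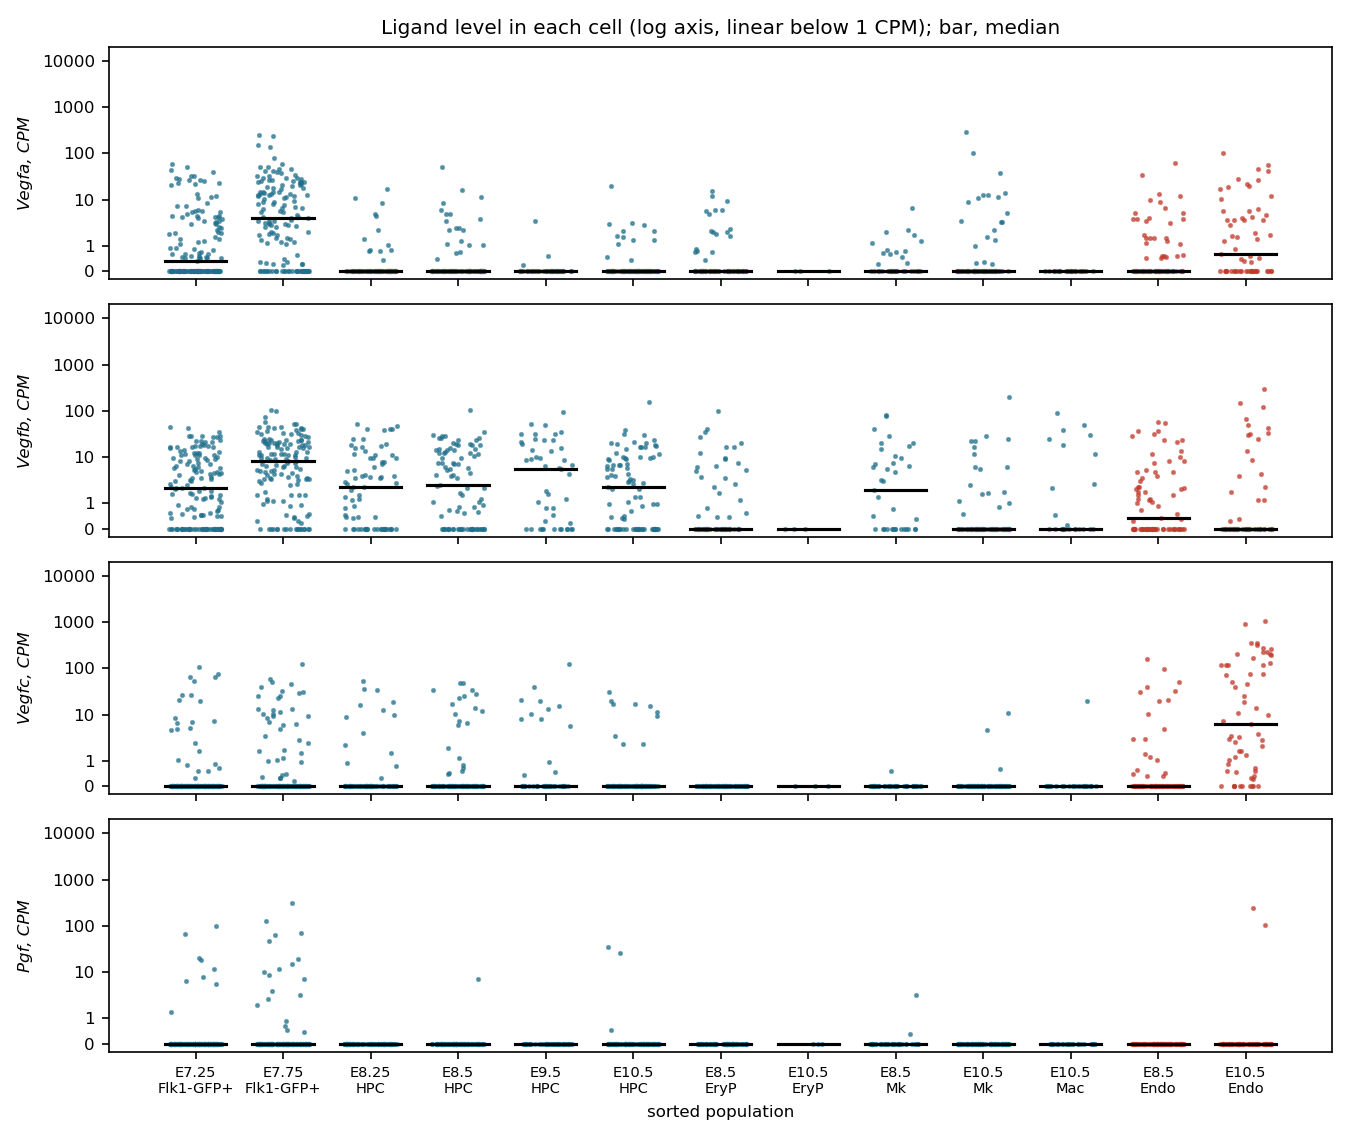
Level of each ligand (CPM, log axis that is linear below 1 CPM) in every cell of the 13 populations, with endothelial cells in red and the median as a black bar. *Vegfc* in E10.5 Endo reaches 1052 CPM, and the median of *Pgf* is 0 in every population.

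Ligand and receptor were found in the same cell in several populations. *Kdr* and *Vegfa* were found together in 46.3% of E7.25 cells (38.0 to 54.7%) and 55.7% of E7.75 cells (47.1 to 64.1%). The share was 38.0% in E8.5 and 59.0% in E10.5 endothelial cells and 27.4% in E10.5 Mk. *Kdr* was found in every endothelial cell and in 93.2% of E10.5 Mk, and there these shares equal those of *Vegfa* alone. Over the 4 HPC stages, in order of age, 17.8%, 20.2%, 4.35% and 5.75% of cells held both. At 10 counts or more of each gene, both were present in 16.3% of E7.25 and 25.7% of E7.75 cells. At that minimum the share was 11.4% in E8.5 Endo, 19.7% in E10.5 Endo and 12.3% in E10.5 Mk.

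Between E8.5 and E10.5 endothelium, 6 of the 7 members compared were called higher at E10.5 and none lower, while of 9938 genes 21.2% were called higher and 16.4% lower. *Vegfc* differed most, by 3.79 on the log2 scale (4.89 without the cells holding *Xist* and Y-linked counts). Its quartile ranges were just apart, with a lower quartile of 0.59 CPM at E10.5 and an upper quartile of 0.20 CPM at E8.5. The 5 highest of the 61 E10.5 cells held 51.2% of its summed level. *Nrp1* followed at 1.98, then *Vegfb* at 1.28, *Flt1* at 1.27, *Flt4* at 1.06 and *Kdr* at 1.05, and *Nrp2* at 0.86 was not called. Quartile ranges overlapped for all of these except *Vegfc*. By the mean of log2(CPM + 1) over cells, *Nrp1* (1.65) and *Vegfc* (2.98) were called and the other 4 were not, with *Vegfb* at -0.07. *Kdr* was under 2-fold in 5 of 8 alternative settings (0.61 to 0.89). Without the cells holding *Xist* and Y-linked counts *Kdr* was at 0.89 and *Flt4* at 0.85. The 5 highest of the 61 E10.5 cells held 34.7% of the summed *Kdr* level, and *Flt4* was under 2-fold in 4 of the 8 settings (0.13 to 0.99).

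The order of populations can be followed from the highest mean down. For all 5 receptors it opened with E10.5 Endo and then E8.5 Endo. For *Kdr* it went on with E8.25 HPC (213.3 CPM), E8.5 HPC (152.1), E10.5 Mk (117.2), E7.25 (109.5), E8.5 Mk (68.6), E9.5 HPC (47.0), E7.75 (36.3), E10.5 HPC (13.3), E10.5 Mac (0.43) and E8.5 EryP (0). Of these neighbours, only E8.5 Endo and E8.25 HPC had quartile ranges that did not overlap. For *Nrp1* the next places were E7.75 (235.2 CPM), E7.25 (209.2) and E10.5 Mac (158.9), whose quartile ranges overlapped.

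The genes most similar to each member were taken by Pearson correlation of log2(mean CPM + 1) over the 12 populations of 25 cells or more, among 7222 genes that reached 50 CPM. They were *Asap2* (r = 0.96), *Fkbp10* (0.95) and *Mast4* (0.93) for *Kdr*, and *Ecscr* (0.96), *Col4a1* (0.96) and *Hdac7* (0.96) for *Flt1*. For *Flt4* they were *Ptprb* (0.99), *Srgap1* (0.99) and *She* (0.98). For *Nrp1* they were *Id3* (0.97), *App* (0.96) and *Anxa2* (0.96), and for *Nrp2* *Nid2* (0.97), *Anxa2* (0.97) and *Map4k4* (0.96). For *Vegfc* they were *Csf1* (0.97), *Dcp2* (0.94) and *Ppp1r9a* (0.94), for *Vegfa* *Myl9* (0.92), *Trrap* (0.91) and *Pkp4* (0.90), for *Vegfb* *Gbp4* (0.80), *Rnf44* (0.75) and *Mettl9* (0.75), and for *Pgf* *Fendrr* (0.97), *Snai2* (0.93) and *2700078F05Rik* (0.92). Among the members themselves the closest pairs were *Nrp1* with *Nrp2* (0.95) and *Flt1* with *Flt4* (0.92), and *Kdr* correlated with *Flt1* at 0.77 and with *Nrp1* at 0.41. All these correlations rest on 12 points that include 2 endothelial populations and share depth and lanes within a point. Those of *Pgf* also rest on means of 5.61 CPM or less, the highest of them from 2 E10.5 endothelial cells. Means were also low for *Vegfa* (16.0 CPM or less) and *Vegfb* (14.6 CPM or less). With all 13 populations, 19 of the 27 named genes were the same.

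Other genes of the pathway were compared in endothelium over HPCs. Among all genes, 17.9% were higher and 984 of 9433 lower in endothelium at E8.5, with a median log2 ratio of -0.03. At E10.5, 30.4% were higher and 2086 of 10248 lower, with a median of 0.15. Beside these the lists stood as follows. Of semaphorins and plexins that act with neuropilins, 6 of 7 compared were higher at E8.5 (median 2.19) and 7 of 7 at E10.5 (median 4.80). Of these, the neuropilin ligand *Sema3a* had means of 60.2 CPM in endothelium and 4.06 CPM in HPCs at E8.5, and the receptor partner *Plxnd1* had 368 and 10.0 CPM at E10.5. *Plxna2* was at 87.9 and 11.6 CPM and *Sema3e* at 14.8 and 2.24 CPM at E8.5. *Sema3g* was at 97.8 CPM in E10.5 endothelium and had no count in E10.5 HPCs, and the E10.5 mean of *Sema3d*, 108.4 CPM, came from 8.20% of the endothelial cells.

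Genes known to respond to VEGF signalling were higher in endothelium in 7 of 8 at E8.5 (median 2.71) and in 6 of 7 at E10.5 (median 3.42), with 1 lower. *Apln* had means of 91.9 and 2.94 CPM and the Notch ligand *Dll4* 42.3 and 2.02 CPM at E8.5, and *Dll4* 160.4 and 0.94 CPM at E10.5. *Esm1* was at 12.7 and 0.22 CPM at E8.5, and at E10.5 at 89.8 CPM in endothelium with no count in HPCs, and the basement membrane gene *Nid2* at 240.5 and 7.47 CPM. Of factors known upstream of *Kdr* and *Flt1*, 7 of 14 were higher and 1 lower at E8.5 (median 1.29), and 8 higher and 2 lower at E10.5 (median 2.43). *Sox17* was at 12.3 and 0.10 CPM, *Notch1* at 40.1 and 3.46 CPM and *Sox7* at 38.8 and 4.14 CPM at E8.5. At E10.5 *Sox7* was at 124.2 and 0.11 CPM, *Sox18* at 87.5 and 0.49 CPM, and *Sox17* at 34.2 CPM with no count in HPCs.

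Receptor signal transduction genes were higher in endothelium in 8 of 21 at E8.5, with 1 lower (median 0.68), and in 14 of 22 at E10.5, with 1 lower (median 1.65). The endocytic adaptor *Dab2* had 785.9 and 41.2 CPM and the nitric oxide synthase *Nos3* 55.8 and 4.52 CPM at E8.5. The kinase *Prkca* was the one lower in endothelium, with 3.42 and 67.3 CPM. At E10.5 the phosphatase *Ptprb* had 895 and 5.74 CPM, *Cav1* 154.05 and 0.59 CPM and *Nos3* 60.3 and 0.38 CPM. In the hypoxia pathway that controls *Vegfa*, 2 of 8 were higher at E8.5 (median 0.40) and 6 of 8 at E10.5 (median 1.31). *Epas1*, which encodes a hypoxia-inducible factor subunit, was at 35.5 and 1.45 CPM at E8.5 and at 417.7 and 1.25 CPM at E10.5. *Egln1*, a prolyl hydroxylase that acts on these factors, was at 31.1 and 11.3 CPM and then at 60.3 and 11.2 CPM, *Egln2* at 33.6 and 19.9 CPM at E8.5 and *Hif1an* at 69.2 and 21.8 CPM at E10.5. *Hif1an* was nevertheless found in fewer endothelial cells (42.6%) than HPCs (81.6%). Of other ligands and ligand processing genes, 2 of 2 were higher at E8.5 (median 1.70) and 3 of 4 at E10.5 (median 3.73). The proteases *Pcsk7* and *Furin* were at 39.3 and 8.44 CPM and at 11.0 and 3.85 CPM at E8.5. At E10.5 *Ccbe1*, which aids the processing of VEGFC, was at 70.8 and 0.32 CPM in 18.0% and 1.15% of cells, *Pcsk5* at 89.7 and 1.32 CPM and *Furin* at 20.1 and 3.67 CPM, in 60.7% and 64.4% of cells.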

How the data were processed

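Single cells were sorted from pooled yolk sacs, captured on a Fluidigm C1 and sequenced from paired-end Nextera XT libraries on a HiSeq, which do not mark strand. Per the labels and the study's methods, the authors aligned reads with Subread to the Ensembl mouse genome (GRCm38) and deposited whole-number counts per gene from featureCounts (versions not given in the sources used here), before and after removing poor cells and low genes. They also deposited a signal in which counts were scaled by scran size factors, called CPM here. These values do not sum to 1000000 in a cell (699615 to 4176737), so levels were also computed per 1000000 counts of the cell total.

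All levels come from the deposited filtered tables. Groups follow the labels, with 1 GEO sample per cell. Because no embryo or pool is named per cell, each population was 1 sample and no p-value was computed. Genes were compared where either population reached a mean of 10 CPM, and a ratio of 2-fold or more was called. Named genes were the 9 members, the 3 genes of most similar pattern for each, and up to 3 genes per pathway list with the largest ratio. The members and lists were chosen with earlier results of these data known. Alternatives were another scaling, the mean of logs, another pseudocount, other filters, all captured cells, cells of 1000000 counts or more, removal of cells with *Xist* and Y-linked counts, lane pairs, a minimum of 10 counts, thinning, all 13 populations and transcript length. Values were computed in Python 3.11.15 (pandas 2.3.3, numpy 2.4.6; intervals with scipy 1.17.1, plots with matplotlib 3.10.9), and the ratio step was tested on simulated data.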

Additional observations from a re-analysis of the deposited data

Results flagged for a closer look

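Some signal lay outside the filtered tables. *Vegfd*, the remaining VEGF ligand and not in the filtered table, had a count in 17 of all 1073 captured cells (1.58%, 0.926 to 2.52%), of which 7 were E7.25 and 7 were E7.75 cells. Among the cells the authors removed, *Kdr* was found in 83.3% of 12 E7.25 cells (51.6 to 97.9%), 80% of 10 E7.75 cells (44.4 to 97.5%) and 50% of 12 E9.5 HPCs (21.1 to 78.9%). It was also found in 37.5% of 16 removed E8.5 Mk (15.2 to 64.6%), 60% of 10 removed E10.5 Mk (26.2 to 87.8%) and 100% of 19 removed E10.5 Endo (82.4 to 100%). Median depth was 77501.5 counts in the removed E8.5 Mk and 546207 in the removed E10.5 Mk. In the kept Mk it was 3536330 and 1668712, so shares of removed and kept Mk are not at like depth. No count of *Kdr* was present in 18 removed E8.5 EryP, 22 removed E10.5 EryP or 16 removed Mac, which allows shares of up to 16.7%, 13.6% and 18.75%.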

How the results depend on the processing

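All 15 receptor comparisons of endothelium with blood at E8.5, and all 15 at E10.5, were called higher under each of 8 alternative settings. The number of ligands highest outside endothelium, 1 (*Vegfa*), was 3 by CPM of the cell total, by the mean of log2(CPM + 1) and over all captured cells, and 2 over cells with 1000000 counts or more. From E7.25 to E7.75, 3 members were called, and 1 with a pseudocount of 10 CPM or a filter at 50 CPM. In endothelium 6 were called between stages and 2 by the mean of logs, where *Vegfb* turned to -0.0689. In HPCs 4 were called and 2 with the 50 CPM filter. In Mk 0 were called, against 1 by the mean of logs (*Kdr*), 2 without a filter (*Flt1* and *Vegfa*) and 1 without cells holding *Xist* and Y-linked counts (*Vegfb*). Per kilobase of the longest transcript, the highest member was the same in 10 of 12 populations, with *Nrp1* in place of *Kdr* in E10.5 Endo and of *Vegfb* in E10.5 HPCs. Ligands were found in 50% or more of cells in 12 of 52 gene and population pairs, and in 2 at a minimum of 10 counts. *Kdr* and *Flt1* were found together in 50% or more of cells in 7 populations, and in 4 at that minimum. The cause of these shifts was not tested. No paired analysis was possible because the results come from no test and no label pairs cells across populations. A share of cells at 1 count depends on depth, and intervals cover counting error only.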
